A study of Mus musculus with 9 samples.

Results

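RNA-Seq libraries of the leukemia clone 34BC-D (clone 34 below) were compared with the libraries of its companions 33BC-D, of 38BC-D and of 43BC-D. Of the 9 libraries, 3 held clone 34 and 6 held the other clones, of which 3 were sequenced before expansion (pre-malignant) and 3 after it (de novo expanded). Members of the comparison were the genes with a mean of 10 or more reads over the 9 libraries, which applied to 14040 of the 55401 genes in the tables. All clones descended from lineage-negative bone marrow cells of C57BL/6-Ly5.1 mice that had been transduced with a gammaretroviral vector for *Meis1*, *Hoxa9* and puromycin resistance and then edited with CRISPR-Cas9 (H9M-/- cells), in all groups alike. Each clone carried a lentiviral FGB-D vector, a color code made of fluorescent proteins and antibody tags. Irradiated C57Bl6/J recipients received a mix of such clones with helper marrow, and splenocytes were sorted by color code within the cKit+CD11bdim gate. The pre-malignant libraries came from 1 mouse. The de novo expanded libraries came from 3 leukemic mice with 1 of the clones each, and the clone 34 libraries came from these 3 mice. Clone 34 therefore stands for 1 clone in 3 mice, and its libraries vary between mice but not between clones. It had no pre-malignant library, so that a clone 34 difference from the pre-malignant libraries also carried the disease stage and the mouse. No label linked a column to a sample within its group, so library numbers name neither a clone nor a mouse.

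*Hoxa9* and *Meis1* encode homeobox transcription factors that together keep myeloid progenitors in self-renewal and, when overexpressed, cause acute myeloid leukemia in mice. Normal progenitors mature along the neutrophil lineage through successive waves of granule proteins, first the primary (azurophil) granule proteases and peroxidase, and later the secondary and tertiary granule proteins. The transcription factors *Gfi1* and *Cebpe* act in this lineage, whereas *Irf8* directs progenitors towards monocytes. Cells of 1 clone share their vector integrations and any mutation of the founder cell, and they pass on stable expression states.

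Reads on genes numbered from 10379739 to 15551196 per library, and between 21618 and 30548 genes had a read. The clone 34 libraries correlated with each other at Spearman's rho of 0.978 to 0.983 over the 14040 genes, which are not independent replicates. One library of the other clones stood apart. De novo expanded library 3 correlated at 0.972 to 0.978 with the clone 34 libraries and at 0.941 to 0.950 with de novo expanded libraries 1 and 2, which correlated at 0.981 with each other. The clone 34 libraries correlated at 0.962 to 0.974 with the pre-malignant libraries. With de novo expanded libraries 1 and 2 they correlated at 0.950 to 0.975. Both ranges overlap that of clone 34 with de novo expanded library 3. Counts of calls without de novo expanded library 3 are given beside those with it. That library was singled out from these same values, and the gene lists were chosen with earlier results known. Counts of list members called without it are therefore descriptive, and nothing is read from them. The leukocyte gene *Ptprc* (CD45), which defines blood cells, was read at 4509.8, 4399.9 and 4799 normalized counts (reads rescaled to a common library size) in clone 34 and between 4238 and 5216 in the other clones. *Kit*, the receptor of the sort, lay at 3105, 3091 and 2792 in clone 34 and between 1937 and 3979 elsewhere. *Itgam* (CD11b), the second gene of the sort, was read at 1188, 777 and 827 and at 379 to 804, and 1 of the 6 other libraries, de novo expanded library 3, reached above the lowest clone 34 library (log2 fold change 0.71, limma adjusted p = 0.304).

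Promoters of 4 genes named in the comparison are shown first, as RefSeq gives them on GRCm38.p6. Each window runs from 250 bases before to 50 bases after the RefSeq start, read 5′ to 3′ on the strand of the gene. Gene positions given below come from the GENCODE annotation of the counts, whose starts can differ. For *Gpx3* the GENCODE start lies before the whole window, and for *Ngp* it lies within the window. *Gpx3* was the gene called in the comparison. *Crim1* and *Tle1* had the smallest adjusted p among the genes lower in clone 34, and *Ngp* was the granule gene whose groups did not overlap. None of these last genes passed the test. Capitals mark CG dinucleotides in *Gpx3*, *Crim1* and *Tle1*, and matches to the C/EBP motif TTGCNNAA on either strand in *Ngp*.
Gpx3, plus strand, chr11:54902604-54902903: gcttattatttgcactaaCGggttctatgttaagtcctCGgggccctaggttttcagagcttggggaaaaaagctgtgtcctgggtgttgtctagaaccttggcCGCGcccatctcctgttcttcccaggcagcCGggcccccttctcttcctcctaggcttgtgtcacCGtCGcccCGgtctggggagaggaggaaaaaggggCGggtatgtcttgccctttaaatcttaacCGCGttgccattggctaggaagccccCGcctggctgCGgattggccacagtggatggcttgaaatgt
Crim1, plus strand, chr17:78199998-78200297: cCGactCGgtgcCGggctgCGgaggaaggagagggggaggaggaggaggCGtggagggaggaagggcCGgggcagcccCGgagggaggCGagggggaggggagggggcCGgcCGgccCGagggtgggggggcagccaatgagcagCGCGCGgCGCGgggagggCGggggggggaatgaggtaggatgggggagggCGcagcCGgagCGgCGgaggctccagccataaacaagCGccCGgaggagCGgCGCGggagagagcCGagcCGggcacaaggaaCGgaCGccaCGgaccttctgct
Tle1, minus strand, chr4:72200844-72201143: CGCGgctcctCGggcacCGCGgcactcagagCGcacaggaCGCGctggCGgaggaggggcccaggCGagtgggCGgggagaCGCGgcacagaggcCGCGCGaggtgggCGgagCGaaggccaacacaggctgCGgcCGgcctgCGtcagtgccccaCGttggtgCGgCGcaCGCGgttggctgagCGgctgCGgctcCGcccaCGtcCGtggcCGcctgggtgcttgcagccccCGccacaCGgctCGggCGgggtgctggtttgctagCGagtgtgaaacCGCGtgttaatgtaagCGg
Ngp, plus strand, chr9:110419558-110419857: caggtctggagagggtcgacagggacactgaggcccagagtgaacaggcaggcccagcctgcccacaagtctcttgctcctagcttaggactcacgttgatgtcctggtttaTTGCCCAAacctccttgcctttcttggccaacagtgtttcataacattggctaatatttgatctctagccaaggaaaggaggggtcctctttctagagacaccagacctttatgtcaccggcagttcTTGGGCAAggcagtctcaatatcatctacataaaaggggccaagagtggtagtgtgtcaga
The windows of *Gpx3*, *Crim1* and *Tle1* held 13, 31 and 40 CG, and that of *Ngp* held 3, against a median of 7 over the 32851 promoters of this length. Of the 28 genes named by the rule on the size of the difference or its p, 21 had a promoter in the table, with 28 windows in all. The median number of CG was 7.5 in the 16 windows of genes higher in clone 34 and 22 in the 12 windows of genes lower in clone 34. The motif TTGCNNAA was found in 2 of 16 windows of genes higher in clone 34, those of *Ngp* and 1 of the windows of *C5ar2*, and in 0 of 12 windows of genes lower in clone 34, against 10.8% of all promoters. The GC box GGGCGG was found in 10 of 16 and 6 of 12 windows, against 35.7% of all promoters. Both motifs were searched on both strands, and the GC box contains a CG. The 32851 promoters were not limited to genes that passed the filter on reads, and genes with several windows counted more than once. Nothing is therefore read from these medians and shares.

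To identify genes that set clone 34 apart from the other clones both before and after their expansion, all 14040 genes were tested with limma. *Gpx3* was the 1 gene called, that is with an adjusted p under 0.05 and at least a 2-fold difference (0.00712% of the genes tested). It was higher in clone 34, and 0 genes were called lower. At an unadjusted p under 0.05, 890 genes were higher (6.34%) and 767 lower (5.46%) in clone 34, together 11.8% of the genes tested. The libraries of clone 34 lay above all 6 other libraries in 326 genes (2.32%) and below all of them in 314 (2.24%), together 4.56%. When an unadjusted p under 0.05 and a 2-fold difference were also asked for, 143 genes were left (1.02%), of which 47 (0.335%) were higher and 96 (0.684%) were lower. DESeq2 on the recovered reads called 40 genes higher and 47 lower, and edgeR's quasi-likelihood test called 0 genes, with 1577 at an unadjusted p under 0.05.

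The count depended on de novo expanded library 3. Without it, 312 of 14024 genes were called (2.22%), 158 of them higher in clone 34 (1.13%) and 154 lower (1.1%), whereas leaving out any other library gave between 0 and 2 calls. In 899 genes (6.4%) the clone 34 libraries lay above every other library except this one, and in 627 (4.47%) they lay below every other except this one. For each of the 5 other libraries, these numbers were 46 to 116 and 45 to 131. Without that library the clone 34 libraries lay above all others in 1243 genes (8.86%) and below all others in 923 (6.58%). Of the 312 genes, 70 did not overlap when the library was included, beside 4.56% of all genes. The 312 genes were called without that library, and 297 of them did not overlap among the remaining libraries. Nothing is therefore read from the count of 70. Examples of these genes are described with the neutrophil genes and under the other observations. Of the 899 genes, 7 were members of the primary granule list and 4 of the secondary and tertiary granule list.

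**Figure D1:**
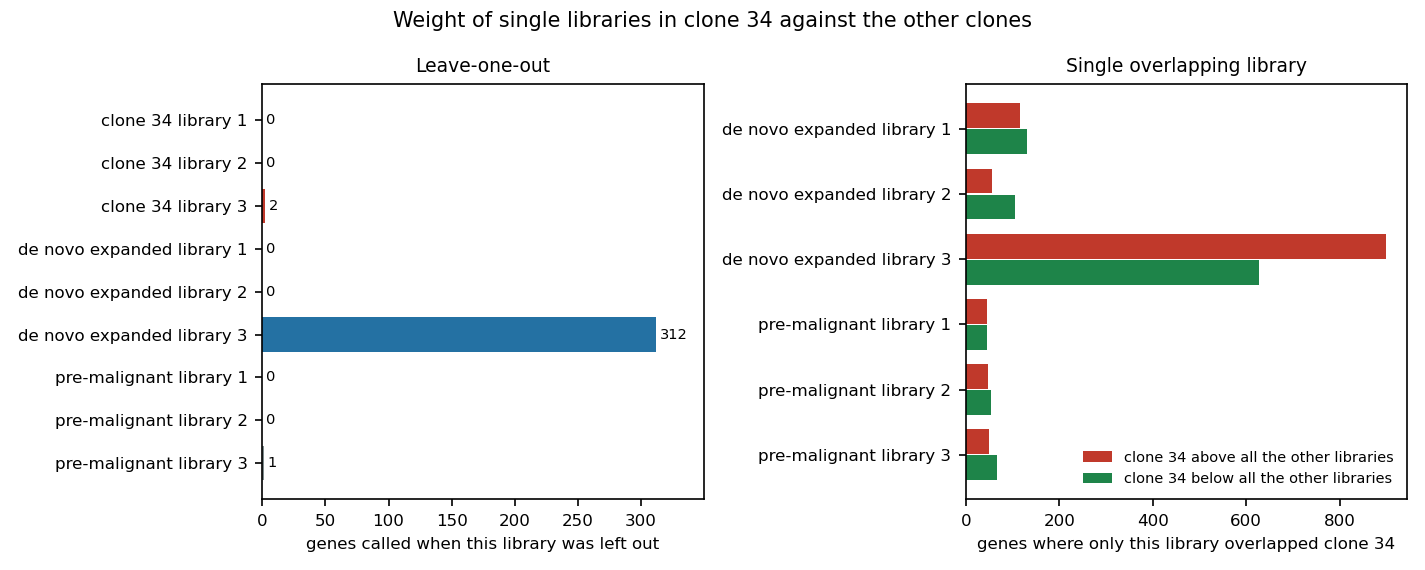
Left, genes called (limma adjusted p under 0.05, at least 2-fold) when each of the 9 libraries was left out. Right, number of genes in which the 3 clone 34 libraries lay above (red) or below (green) all other libraries except the 1 named on the axis. De novo expanded library 3 gave 312 genes on the left and 899 and 627 on the right.

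*Gpx3* (chr11:54902453-54910377) encodes plasma glutathione peroxidase, a secreted selenoprotein that reduces peroxides. It was read at 554, 333 and 278 normalized counts in the clone 34 libraries. The de novo expanded libraries held 3.42, 2.62 and 5.41, and the pre-malignant libraries 5.25, 3.72 and 39.7. The groups did not overlap, and the lowest clone 34 library was far above the highest other one, pre-malignant library 3. The mean was 388 ± 146 (SD, n = 3) in clone 34 and 10.0 ± 14.6 (SD, n = 6) in the other clones, with a log2 fold change of 5.72 ± 0.67 (SE; limma adjusted p = 0.0456). Against the de novo expanded libraries alone the log2 fold change was 6.32 (limma adjusted p = 0.0428), and against the pre-malignant libraries it was 5.13 (adjusted p = 0.0501). Unlike the granule genes described below, *Gpx3* was low in de novo expanded library 3 too, with few reads in each library of that group. Its adjusted p lay close to the limit, and it was called under 8 of 21 alternatives, with adjusted p from 3.6e-05 to 0.451 and log2 fold changes from 4.9997 to 6.31. Leaving out de novo expanded library 3 or pre-malignant library 3 kept the call, with adjusted p of 0.00559 and 0.000123. Leaving out any of the other 7 libraries ended it, with adjusted p of 0.0684 to 0.228. Of the 16 tested genes of the glutathione and antioxidant list, *Gpx3* was the 1 called, and the median log2 fold change was 0.11, beside 0.00085 over all genes. The others ranged from -0.21 in *Gss*, glutathione synthetase, to 0.85 in *Gsr*, glutathione reductase. *Gpx1*, the cytosolic peroxidase, had a log2 fold change of 0.12, and *Gpx4*, which reduces lipid peroxides, one of 0.11. *Gsr* was read at 10492, 7812 and 7127 in clone 34, 2501, 3479 and 8870.3 in de novo expanded and 5770.1, 4444 and 4997 in pre-malignant libraries (limma adjusted p = 0.362). Without de novo expanded library 3 *Gsr* was called higher, beside 1.13% of all genes.

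Some genes had reads in every library of the other clones and almost none in clone 34, and 0 of them passed the test. In 6 genes each clone 34 library had at most 3 reads and each other library more than 3, namely *Adam12*, *Crim1*, *Gbx2*, *Slc16a7*, *Gm4070* and *Gpr137b-ps*. The reverse pattern was found in 0 genes. The filter on mean reads passes a gene read only in the 6 other libraries at lower counts per library than one read only in clone 34. The numbers of genes with either pattern are therefore not compared. *Gm4070* and *Gpr137b-ps* were named after their values were seen. A count of up to 3 reads cannot be told apart from 0 at this depth. Genes with a read numbered 21618, 27067 and 22708 in clone 34, 27989, 24037 and 23537 in de novo expanded and 29759, 30548 and 27896 in pre-malignant libraries. The part of this in the low counts was not tested.

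*Crim1* (chr17:78200248-78376592) encodes a transmembrane protein that binds bone morphogenetic proteins. It had 0.905, 0.918 and 0 normalized counts in clone 34, 17.1, 16.6 and 13.5 in the de novo expanded and 18.9, 8.37 and 20.3 in the pre-malignant libraries. All 6 other libraries lay well above clone 34. The ratio of the other clones to clone 34 was 23.1, with a counting interval of 6.22 to 193 (log2 fold change -3.40 ± 0.47, limma adjusted p = 0.0784). *Adam12* (chr7:133883199-134232146), a membrane metalloprotease, had 0 reads in each clone 34 library. It was read at 4.56, 8.72 and 68.5 in the de novo expanded and 15.8, 5.58 and 10.2 in the pre-malignant libraries, and was at least 19.1-fold lower in clone 34 against a floor of 3 reads over the group. Its level in the other clones was led by de novo expanded library 3, and without that library the mean fell under 10 reads. *Gbx2* (chr1:89927956-89931179), a homeobox gene of hindbrain patterning, was read at 0, 2.75 and 0 in clone 34. The other libraries ranged from 5.70 to 27.7, a ratio of 16.5 (counting interval 5.49 to 81.2). Both groups were low, and a few reads decide this ratio. *Slc16a7* (chr10:125219270-125389465), the monocarboxylate transporter MCT2, was read at 0.905, 0 and 1.34 in clone 34. The other clones spread widely, at 4.56, 41.8 and 93.8 after and 93.5, 6.51 and 107 before expansion, a ratio of 86.6 (counting interval 23.8 to 718). Within each of the 2 groups, 1 library was far lower than the others but still above clone 34.

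*Tle1* (chr4:72117142-72200919), a Groucho-family transcriptional corepressor, had even values within both groups. Clone 34 had 24.4, 23.0 and 14.8 normalized counts, against 75.2, 70.6 and 59.5 in the de novo expanded and 81.9, 75.4 and 79.4 in the pre-malignant libraries. Each group was tight, and the gap between them was larger than the spread within either (log2 fold change -1.81 ± 0.24, limma adjusted p = 0.0784). *Palld* (chr8:61511433-61902690), encoding the actin-bundling protein palladin, was read at 2.71, 6.43 and 12.1 in clone 34, 71.8, 64.5 and 294 in de novo expanded and 97.7, 200.05 and 54.5 in pre-malignant libraries. Its log2 fold change was -3.92 ± 0.57 (limma adjusted p = 0.0910). De novo expanded library 3 was here the highest of all libraries, on the side away from clone 34. *Zfp11* (chr5:129654593-129670099), a zinc finger gene, was read at 0.905, 0.918 and 14.8 in clone 34, 131, 112 and 64.0 in de novo expanded and 32.6, 63.3 and 48.9 in pre-malignant libraries (log2 fold change -4.15 ± 0.68, limma adjusted p = 0.199). Here clone 34 library 3 was higher than the other 2 clone 34 libraries, yet below all 6 others.

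The remaining genes of the 12 with the largest negative fold changes had limma adjusted p of 0.237 or 0.238 and no overlap. *Pkd2* (chr5:104459450-104505819), the polycystin-2 cation channel, was read at 0, 1.84 and 6.72 in clone 34, 22.8, 21.8 and 20.7 in de novo expanded and 51.5, 56.8 and 45.2 in pre-malignant libraries (log2 fold change -3.62). Its levels in the de novo expanded and the pre-malignant libraries lay in separate ranges, both above clone 34. *Pkp4* (chr2:59160850-59355208), a plakophilin of cell junctions, was read at 50.7, 90.9 and 24.2, against 136 to 363 in the other clones (log2 fold change -2.23). *Rgs1* (chr1:144242296-144249242), a regulator of G protein signaling in leukocytes, had 0, 4.59 and 2.69 in clone 34 and 9.02 to 25.9 elsewhere. *Cxxc5* (chr18:35829397-35861688), a CXXC zinc finger gene that is a *Wnt* pathway inhibitor, had 2.71, 10.1 and 1.34 and 18.6 to 70.6, and de novo expanded library 2 was its highest library. *Pax5* (chr4:44524757-44710487), the B cell identity factor, had 2.71, 8.26 and 2.69 and 9.59 to 65.1, and is taken up again with the B cell markers. *Olfr552* (chr7:102597770-102608125), an olfactory receptor gene, had 8.14, 1.84 and 1.34 and 9.23 to 30.5. Olfactory and vomeronasal receptor genes, which serve smell and are counted here as a sign of stray reads, took 0.00219% to 0.00816% in clone 34 and 0.00386% to 0.0186% of reads in the other libraries. With this share as a covariate all 12 genes with the largest negative fold changes stayed negative, from -5.24 in *Slc16a7* to -1.74 in *Pax5*, and 0 were called. The fold change of *Pax5* moved most towards 0, and that of *Slc16a7* moved most away from it.

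**Figure D2:**
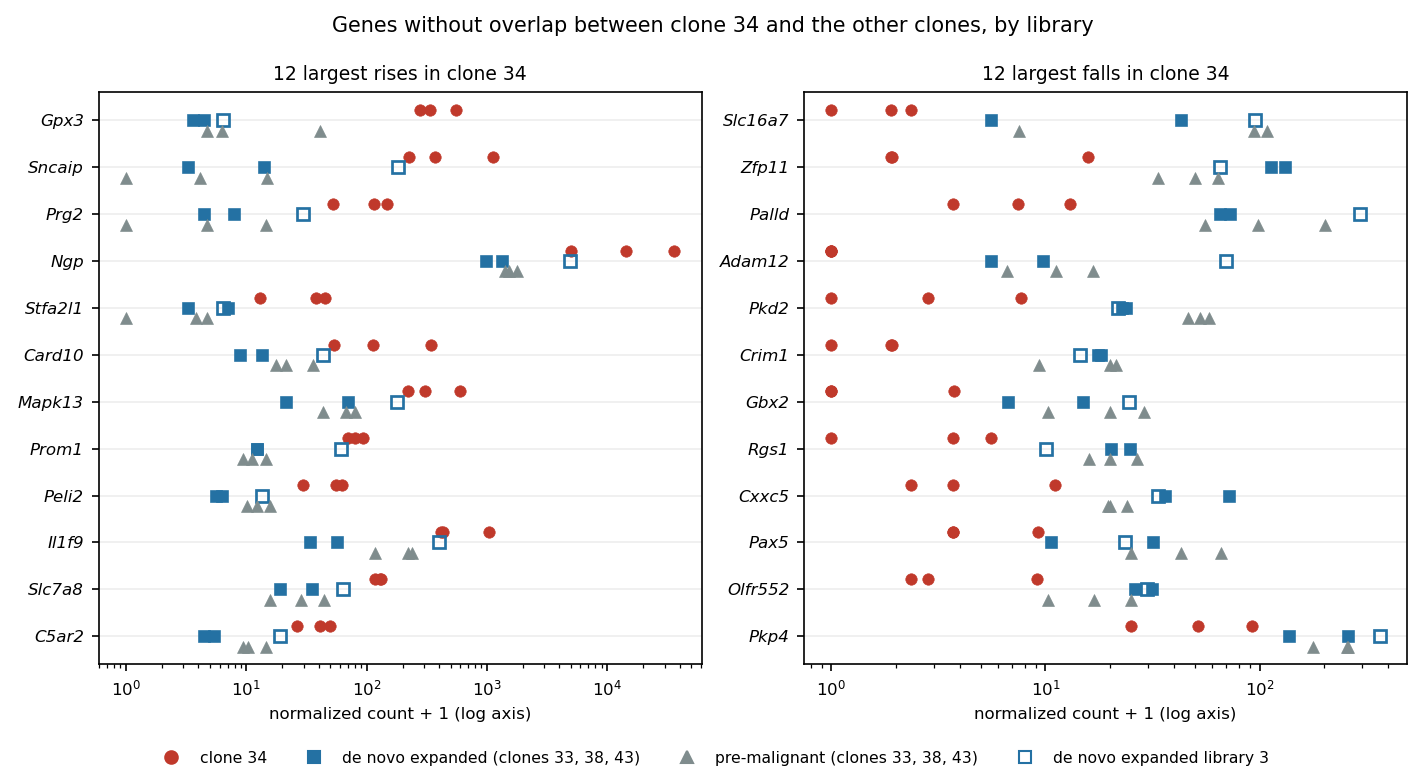
Normalized count plus 1 (log axis) of the 24 genes without overlap that differed most from the other clones, 12 higher and 12 lower in clone 34, 1 point per library. Clone 34 is shown as red circles, de novo expanded libraries as blue squares with library 3 open, and pre-malignant libraries as gray triangles. In normalized counts before 1 is added, the *Gpx3* circles stand for 278 to 554 and all other *Gpx3* points for 39.7 or less. The *Crim1* circles stand for normalized counts under 1.

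Among the 12 genes with the largest positive fold changes, limma adjusted p lay for those other than *Gpx3* between 0.237 and 0.314, so 0 of these 11 genes passed the test. *Sncaip* (chr18:52767709-52915935), encoding the alpha-synuclein binding protein synphilin-1, was read at 371, 224 and 1120.1 normalized counts in clone 34. De novo expanded libraries held 2.28, 13.1 and 183, and pre-malignant libraries 3.15, 14.0 and 0. Of the other clones, only de novo expanded library 3 held more than 14.0 (log2 fold change 5.66 ± 1.29). *Prom1* (chr5:43993620-44102032), the progenitor surface protein CD133, was read at 93.2, 79.9 and 68.5 in clone 34, 11.4, 11.3 and 60.4 in de novo expanded and 13.7, 8.37 and 10.2 in pre-malignant libraries. De novo expanded library 3 again lay just below clone 34, and the other 5 libraries far below it (log2 fold change 2.37 ± 0.54). *Slc7a8* (chr14:54722209-54781946), the amino acid transporter LAT2, varied little within clone 34, at 116, 129 and 132 in clone 34, 18.2, 34.0 and 62.2 in de novo expanded and 43.1, 14.9 and 27.7 in pre-malignant libraries (log2 fold change 2.04 ± 0.41).

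Several of the higher genes are known from granulocytes. *Prg2* (chr2:84980461-84983632), eosinophil major basic protein, was read at 147, 51.4 and 114 in clone 34, 6.84, 3.49 and 28.9 in de novo expanded and 13.7, 3.72 and 0 in pre-malignant libraries. *Stfa2l1* (chr16:36156811-36161953), a cysteine protease inhibitor of the stefin A family, was read at 44.3, 36.7 and 12.1 against 0 to 6.10. Stefin A genes are near-identical copies, and reads may have been split among them. *C5ar2* (chr7:16234585-16244154), a receptor of complement C5a, was read at 48.9, 40.4 and 25.5 against 3.42 to 18.038. *Il1f9* (chr2:24186476-24193568), the cytokine IL-36 gamma, was read at 1039.7, 412 and 429.8 in clone 34, 33.0, 55.8 and 400.4 in de novo expanded and 238, 219 and 117 in pre-malignant libraries. Its highest other library, de novo expanded library 3, lay just below the lowest clone 34 library. In all of these genes, except *Stfa2l1*, de novo expanded library 3 was the highest of the other libraries.

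Signaling genes made up the rest. *Card10* (chr15:78775138-78803042), a scaffold of NF-κB activation, was read at 341, 111 and 52.4 in clone 34 and 7.85 to 42.4 in the other clones. *Mapk13* (chr17:28769297-28780233), the p38 delta kinase, was read at 599.9, 304 and 222 and 20.5 to 177. *Peli2* (chr14:48120823-48281575), a ubiquitin ligase of the Toll-like receptor pathway, was read at 61.5, 28.5 and 55.1 and 4.56 to 14.7. In *Card10* the clone 34 libraries spread widely, and the lowest of them lay close to the highest other library. Among the higher genes with the smallest p, *F5* (chr1:164151838-164220277), coagulation factor V, was read at 904, 629 and 395 in clone 34 and 199.6 to 316 in the other clones. *Gsn* (chr2:35256380-35307892), the actin-severing protein gelsolin, was read at 2091, 1071 and 998 and 299.9 to 799. *Mbd2* (chr18:70568189-70626131), which binds methylated DNA, was read at 2136, 1913 and 2176 and 1213 to 1679, a small but even difference (log2 fold change 0.61 ± 0.11, limma adjusted p = 0.237). Of the 28 genes named by size or p, 26 were called without de novo expanded library 3, beside 2.22% of all genes. Since these genes were chosen from the same values, nothing is read from this count. The exceptions were *Mbd2*, which stayed under 2-fold, and *Adam12*, which no longer passed the filter on low reads.

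Further genes without overlap were chosen after their values were seen, because their products act in granulocytes or in signaling. *Ceacam1*, an adhesion molecule of neutrophils, was read at 2104, 1128 and 1256 in clone 34 and 477 to 1034 in the other clones. *Il1rn*, the interleukin 1 receptor antagonist, was read at 182, 105 and 126 and 22.8 to 95.6. *Ffar2*, a receptor of short-chain fatty acids on neutrophils, was read at 191, 95.5 and 73.9 and 16.0 to 67.6. In each of these 3 genes the highest other library was de novo expanded library 3. *Clec4a2*, a C-type lectin receptor of myeloid cells, was read at 558, 359.9 and 321 and 16.0 to 289. *Cdkn2a*, the locus of the cell cycle inhibitor p16 and of the ARF protein, was read at 29.0, 54.2 and 34.9 and 7.98 to 22.7. *Fyn*, a Src-family kinase, was lower at 7.24, 39.5 and 17.5 against 46.5 to 199.6, and *Itsn1*, an endocytic scaffold, at 18.1, 52.3 and 5.37 against 64.6 to 102. The limma adjusted p of these 7 genes lay between 0.237 and 0.330.

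The contrasts with each stage were then set side by side. Both share the clone 34 libraries and therefore are not independent. For *Sncaip*, *Prg2* and *Prom1* the log2 fold change against the de novo expanded libraries was 4.48, 3.25 and 1.94, and against the pre-malignant libraries 6.84, 4.55 and 2.81. For *Crim1*, *Palld* and *Tle1* it was -3.43, -3.98 and -1.70 against de novo expanded and -3.36, -3.86 and -1.91 against pre-malignant libraries. For these last 3 genes, which are among the lower genes, both contrasts were of like size, and the difference between de novo expanded and pre-malignant libraries was 0.07, 0.12 and -0.21. In the contrast with the de novo expanded libraries 2 genes were called (0.0142%), *Gpx3* and *Fnbp1l*, both higher in clone 34. In the contrast with the pre-malignant libraries 6 were called (0.0427%), with 3 higher (0.0214%), among them *Cd81* and *Gm5483*, and *Igkv12-41*, *Slc25a27* and *Gbp5* lower (0.0214%).

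These genes, apart from *Gpx3*, were named after their values were seen, and in several of them clone 34 lay with 1 of the other groups. *Fnbp1l* (chr3:122538719-122619715), a membrane-bending adaptor of actin assembly, was read at 2019, 1911 and 2286 in clone 34 and 1724, 2628 and 2068 in the pre-malignant libraries, but at 817, 671 and 878 in the de novo expanded ones. Clone 34 thus lay within the pre-malignant range, and the de novo expanded libraries differed from the pre-malignant ones (log2 fold change -1.43, limma adjusted p = 0.0234). Since all pre-malignant libraries came from 1 mouse, stage and mouse cannot be told apart in this contrast. *Igkv12-41*, an immunoglobulin kappa variable segment, had 0 reads in all clone 34 and all de novo expanded libraries and 119, 32.6 and 87.7 normalized counts in the pre-malignant ones. *Cd81*, a tetraspanin, was read at 1353, 1244 and 1224 in clone 34 and 997, 1068 and 1269.9 in de novo expanded libraries, against 598, 535 and 508 before expansion. In *Igkv12-41* and *Cd81*, which were also called between de novo expanded and pre-malignant libraries (5 calls, 0.0356%, with 3 higher, 0.0214%, and 2 lower, 0.0142%), clone 34 and the expanded clones lay on the same side of the pre-malignant libraries. *Gm5483*, another stefin A family gene, was read at 112, 109 and 28.2 in clone 34, 16.0, 10.5 and 18.9 in de novo expanded and 2.10, 2.79 and 2.77 in pre-malignant libraries. *Gbp5*, an interferon-induced GTPase, was read at 56.1, 72.5 and 56.4 in clone 34, 133, 112 and 119 in de novo expanded and 252, 169 and 327 in pre-malignant libraries. *Slc25a27*, a mitochondrial carrier of the uncoupling protein family, was read at 9.05, 16.5 and 12.1 in clone 34, 33.0, 48.8 and 29.8 in de novo expanded and 90.4, 77.2 and 68.3 in pre-malignant libraries. For these 3 genes, clone 34 stood beyond all 6 other libraries and the de novo expanded libraries lay in between.

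**Figure D3:**
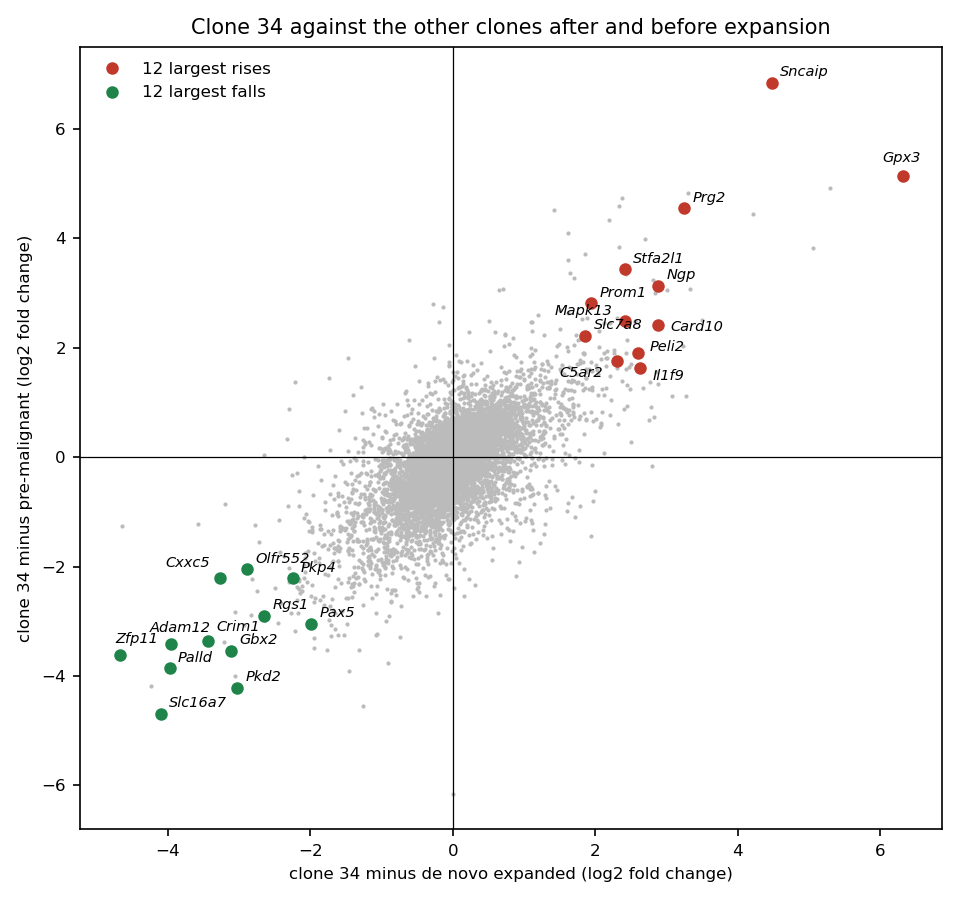
Log2 fold change of clone 34 against the de novo expanded libraries (x axis) and against the pre-malignant libraries (y axis) for 14040 genes (gray), with the 12 genes furthest above (red) and below (green) the other clones named. Both axes share the clone 34 libraries, and named genes lie in the upper right and lower left because they were chosen without overlap. *Gpx3* lies at 6.32 and 5.13.

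Primary granule genes of neutrophils mostly lay higher in clone 34 than in 5 of the 6 other libraries, but 0 passed the test. *Mpo*, the peroxidase of primary granules, was read at 123617, 101104 and 113720.0 normalized counts in clone 34, 22355, 36037 and 218137 in de novo expanded and 85054, 95650.5 and 92564 in pre-malignant libraries. *Elane*, neutrophil elastase, was read at 24074, 17314 and 17179.9 in clone 34, 2019, 3616 and 29662 in de novo expanded and 11369, 11323 and 10973 in pre-malignant libraries. In both genes de novo expanded library 3 exceeded clone 34 and the other 5 libraries lay below it. Over the 8 primary granule genes, all tested, 0 were called and 0 did not overlap, and the median log2 fold change was 0.68. In 7 of the 8, clone 34 lay above every other library except de novo expanded library 3, beside 6.4% of all genes, and *Lyz2* was the exception. Without that library 2 of the 8 were called higher, *Ms4a3* and *Prss57* (log2 fold changes of 1.46 and 1.497), beside 1.13% of all genes.

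Secondary and tertiary granule genes differed more, and within clone 34 as well. *Camp*, the cathelicidin precursor, was read at 11159.5, 2819 and 1174 in clone 34, 291, 361 and 1299 in de novo expanded and 84.1, 448 and 247 in pre-malignant libraries. *Ltf*, lactoferrin, was read at 1364, 482 and 63.1 in clone 34, 104, 34.0 and 90.2 in de novo expanded and 14.7, 28.8 and 5.54 in pre-malignant libraries. *Ngp* (chr9:110419747-110423012), neutrophilic granule protein, was read at 36129.7, 14414 and 5014 in clone 34, 989, 1342 and 4881 in de novo expanded and 1411, 1777 and 1536 in pre-malignant libraries (log2 fold change 3.01 ± 0.57, limma adjusted p = 0.237). Clone 34 library 1 was highest and library 3 lowest in all 3 genes, and in *Ngp* library 3 was hardly above de novo expanded library 3. Of 11 tested members 0 were called, 1 did not overlap (beside 4.56% of all genes), and the median log2 fold change was 2.61. The summed level of the list was 66332, 27647 and 8716 in the clone 34 libraries and ranged from 2871 to 9398 in the others. Without de novo expanded library 3, 7 of the 11 were called higher (*Camp*, *Itgb2l*, *Lcn2*, *Ltf*, *Ngp*, *Olfm4* and *S100a8*), beside 1.13% of all genes, and 5 were higher without overlap, beside 8.86%. Since that library was singled out from the same values, nothing is read from these counts. More cells of a type and more RNA per cell cannot be told apart in such bulk libraries.

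**Figure D4:**
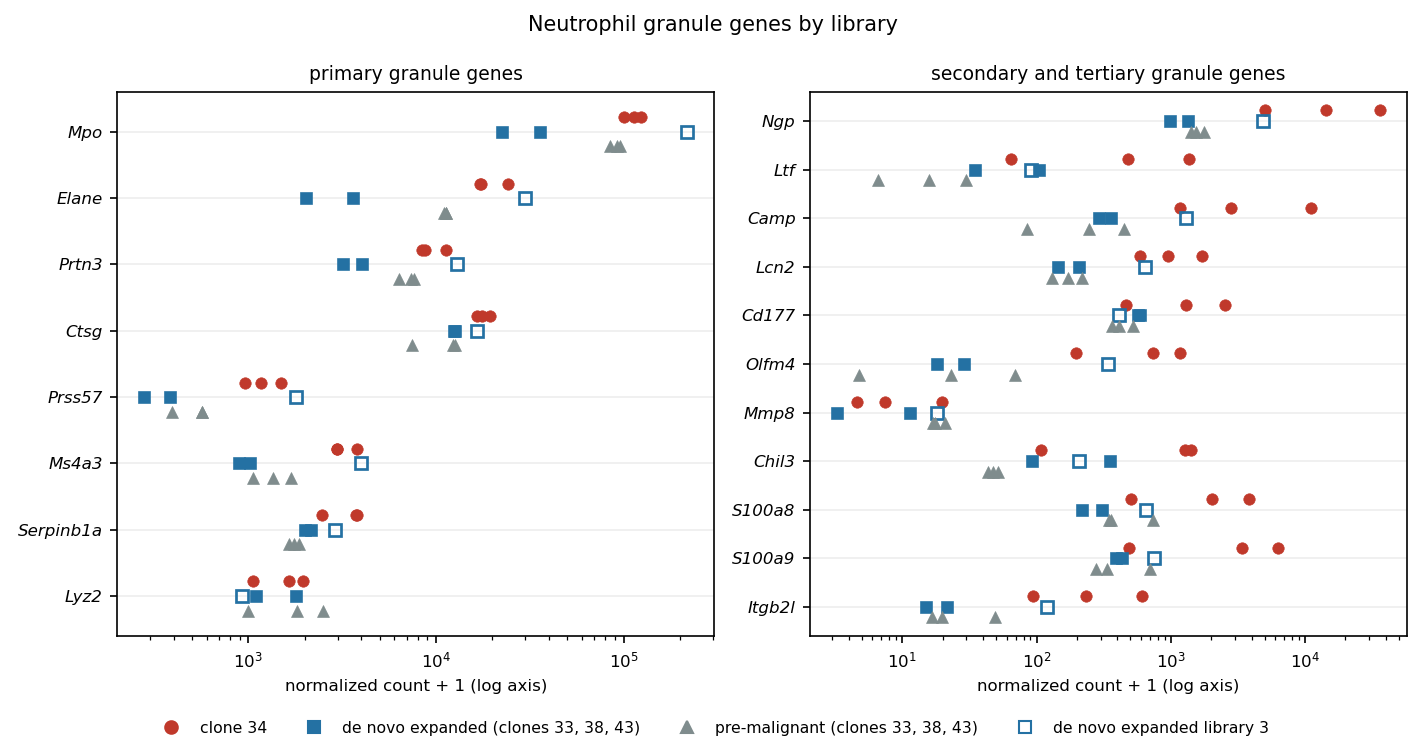
Normalized count plus 1 (log axis) of 8 primary granule genes and 11 secondary and tertiary granule genes, 1 point per library, with symbols for clone 34 (red circles), de novo expanded (blue squares, library 3 open) and pre-malignant libraries (gray triangles). In *Mpo* the open square lies at 218137 and the clone 34 circles between 101104 and 123617.

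Some transcription factors of the lineage showed the same order of libraries. *Cebpe* was read at 1927, 971 and 1495 in clone 34, 116, 219 and 1237 in de novo expanded and 502, 451 and 386 in pre-malignant libraries. *Gfi1* was read at 4938, 3089.7 and 3668 in clone 34, 1005, 1269 and 4296 in de novo expanded and 2211, 2249.8 and 1928 in pre-malignant libraries. *Irf8* was ordered the other way, at 1690.3, 3469 and 2002 in clone 34, 5343, 5850.2 and 873 in de novo expanded and 4263, 5989 and 7606 in pre-malignant libraries. Again de novo expanded library 3 lay with clone 34, or beyond it, and the other 5 libraries on the far side. Of 13 tested factors 0 were called and 0 did not overlap (median log2 fold change 0.12). Without that library 2 of the 13 were called higher, *Cebpe* and *Gfi1* (log2 fold changes of 2.26 and 1.22), beside 1.13% of all genes. *Irf8* was the 1 factor called lower (-1.32), beside 1.1% of all genes. In the list of growth factor and cytokine receptors, *Csf1r*, the receptor of the macrophage growth factor, was read at 404, 763 and 459 in clone 34, 733, 1136 and 172 in de novo expanded and 1351, 1704 and 2187 in pre-malignant libraries, and *Il6st*, the shared receptor chain gp130, at 322, 732 and 451 in clone 34, 1251, 1386 and 192 in de novo expanded and 1004, 1231 and 1501 in pre-malignant libraries. Both were called lower without de novo expanded library 3 (log2 fold changes of -1.35 and -1.41), beside 1.1% of all genes. With that library 0 of the 13 tested receptors were called (median 0.01). *Tnfrsf1b*, a receptor of tumor necrosis factor, was the 1 receptor without overlap, beside 4.56% of all genes. Members of the lists that were not named by the rule were chosen as examples after their values were seen.

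Adhesion and homing genes were considered because clones of this mix settle in marrow and spleen. Of 19 tested genes 0 were called, 1 was higher without overlap and 3 lower, beside 2.32% and 2.24% of all genes, and the median log2 fold change was 0.02. *Cxcr2*, the chemokine receptor of neutrophils, was the higher one, at 93.2, 72.5 and 57.7 against 11.4 to 37.8. The lower ones were *Palld*, *Pkp4* and *Itgal*, the integrin alpha L chain, read at 2839, 3126 and 3398 against 3606 to 3767. *Palld* and *Pkp4* are also among the largest negative fold changes above, and the list was written with earlier results of these data known. Nothing is therefore read from the count of 3 lower genes. Without de novo expanded library 3, *Cxcr2* was called higher (beside 1.13% of all genes) and *Palld* and *Pkp4* lower (beside 1.1%). In the ceramide and sphingolipid list 1 of 13 tested genes did not overlap, beside 4.56% of all genes. This was *Cers4*, a ceramide synthase, at 63.3, 66.1 and 53.7 in clone 34, 309, 323 and 82.1 in de novo expanded and 150.2, 202 and 145 in pre-malignant libraries (log2 fold change -1.56, limma adjusted p = 0.261), and it was called lower without de novo expanded library 3. That call stands beside 1.1% of all genes, and the median of the list was 0.02. Of 11 tested stem and progenitor genes 0 did not overlap (median -0.24). Without de novo expanded library 3 *Dach1* and *Lin28a* were called higher, beside 1.13% of all genes. *Mllt3*, a cofactor of the elongation complex, was then called lower, beside 1.1%. Of 17 mitosis genes 0 did not overlap (median 0.17), and of 6 imprinted genes 0 did not overlap (median 0.05).

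Immediate early genes, which are switched on within minutes of a stimulus or of cell handling, had low medians mainly against the pre-malignant libraries. The 18 tested genes had a median log2 fold change of -0.61, made of -0.12 against de novo expanded and -0.97 against pre-malignant libraries, and 0 were called. *Fos* was read at 1198, 4191 and 3813 in clone 34, 3007, 4249.7 and 1934 in de novo expanded and 7289, 6552 and 8821 in pre-malignant libraries. *Atf3* was read at 23.5, 124 and 167 in clone 34, 131, 202 and 50.5 in de novo expanded and 505, 252 and 479 in pre-malignant libraries. Clone 34 library 1 was lowest in both genes, the expanded clones overlapped clone 34, and the pre-malignant libraries lay above. Interferon response genes had a median of -0.37, with 0 of 18 tested genes called and 2 lower without overlap (beside 2.24% of all genes), *Gbp5* and *Bst2*, which encodes tetherin. *Bst2* was read at 157, 151 and 122 in clone 34, 309, 223 and 178 in de novo expanded and 223, 213 and 242 in pre-malignant libraries (limma adjusted p = 0.275). Without de novo expanded library 3, *Gbp5* and *Mx1*, an interferon-induced antiviral GTPase, were called lower, beside 1.1% of all genes. Against de novo expanded libraries the median of the list was -0.13, and against pre-malignant libraries -0.81.

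Markers of other cells that the gate could hold were counted next to these results. B cell markers had a median log2 fold change of -1.27 over 9 tested genes, 1 of them without overlap (*Pax5*, beside 4.56% of all genes) and 0 called. Their summed level was 1209, 1247 and 1515 in clone 34, 3133, 2266 and 1061 in de novo expanded and 3836, 3118 and 3795 in pre-malignant libraries, so the lowest level was in de novo expanded library 3. *Ighm*, the immunoglobulin mu chain, led this sum, at 943, 1060.5 and 1158 in clone 34, 2619, 2034 and 855 in de novo expanded and 2899.7, 2647 and 3286 in pre-malignant libraries, and *Igkc*, the kappa chain, was read at 13.6, 11.9 and 71.2 in clone 34, 293, 101 and 17.1 in de novo expanded and 545, 157 and 243 in pre-malignant libraries. One marker, *Cd79b*, was ordered the other way, at 203, 130.4 and 248 in clone 34, 85.5, 64.5 and 127 in de novo expanded and 95.6, 137 and 63.7 in pre-malignant libraries. Leaving out de novo expanded library 3 gave a median of -1.54, and then 5 of the 9 were lower without overlap (beside 6.58% of all genes), *Ighm*, *Igkc* and *Pax5* were called lower (beside 1.1%) and *Cd79b* higher (beside 1.13%). The part of B cells in the low *Pax5* of clone 34 was not tested.
Erythroid markers summed to 151, 448 and 67.2 in clone 34 and 46.0 to 787 in the others, with 0 of 7 tested genes without overlap. Macrophage and monocyte markers summed to 16590.4, 19922 and 17722 and 16223 to 21610.2, with 0 of 6 without overlap. Markers of eosinophils, basophils and mast cells summed to 734, 453 and 681 and 119 to 581. Of 5 tested, *Prg2* was the 1 without overlap, beside 4.56% of all genes. T and NK cell markers summed to 19.9 to 41.3 in clone 34 and 21.8 to 62.3 elsewhere, platelet markers to 29.9 to 45.9 and 22.8 to 52.5, and dendritic cell markers to 269 to 323 and 314 to 596, all low. Their part in the differences of clone 34 was not tested.

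Genes of the sort and the vectors were measured in every library. *Hoxa9*, whose reads from the vector and from the own gene cannot be told apart, was read at 7089, 6758 and 6315 in clone 34 and 4311 to 9485 in the others (log2 fold change 0.16). *Meis1* was read at 11786, 11714 and 11018 and 7314 to 15174 (log2 fold change 0.23). *Thy1*, of which the color code carries a part, was read at 2220.5, 2008 and 1632 and 1522 to 2336. The clone 34 libraries were more alike in *Hoxa9* and *Meis1* than those of the other clones, whose highest values were in de novo expanded library 3. *Hoxa9*, *Meis1*, *Thy1*, *Kit*, *Itgam* and *Ptprc* all overlapped between clone 34 and the other clones. The 4 tested sex genes, all on chromosome Y, had a median of -0.16 with 0 without overlap.

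To see whether genes of a chromosome moved together in clone 34, medians were compared by chromosome with the exact permutation test of 3 against 6 libraries, in which the smallest two-sided p is 0.0119. After adjustment over 22 chromosomes, the mitochondrial one included, 1 chromosome alone cannot go below an adjusted p of 0.262, and 6 at the smallest p would be needed to pass 0.05, so this design could not call a change of 1 chromosome. The medians are therefore given as values. The lowest adjusted p was 0.34, and no chromosome had all 3 clone 34 libraries on one side of all 6 others. Chromosome 14 had the largest difference among the autosomes, 0.13 on the log2 scale (exact permutation p = 0.119, adjusted p = 0.34). Its clone 34 medians lay with those of 4 other libraries, and de novo expanded library 3 and pre-malignant library 1 lay well below. Genes above all other libraries made up 5.07% of the 473 genes of chromosome 14, beside 2.32% of all genes.

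**Figure D5:**
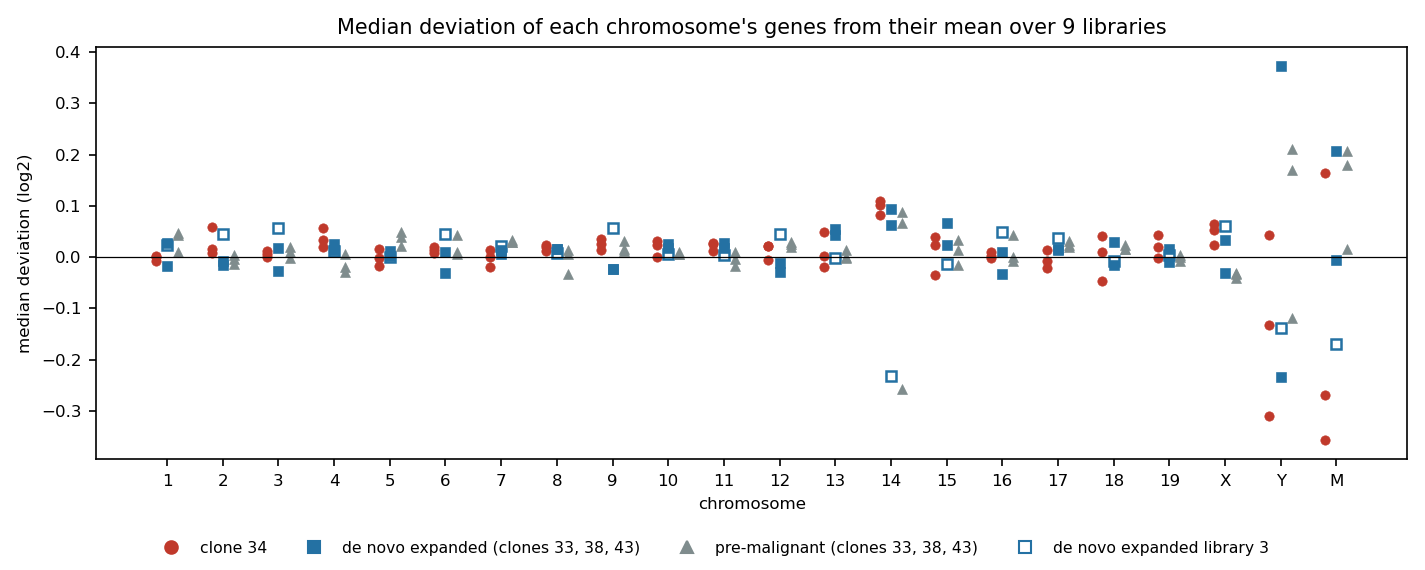
Median over the genes of each chromosome of log2(normalized count + 1) minus the mean of the gene over the 9 libraries (y axis, log2), 1 point per library, in the symbols for clone 34 (red circles), de novo expanded (blue squares, library 3 open) and pre-malignant libraries (gray triangles). On chromosome 14 the open square and 1 triangle lie below all other points, and chromosomes Y and M hold few genes.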

How the data were processed

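RNA from sorted cKit+CD11bdim splenocytes was sequenced in 9 libraries. The authors processed the reads with nf-core/rnaseq 1.4.2 on GRCm38.p6 with the GENCODE M25 annotation, counted them with featureCounts 1.6.4 and deposited, for each pair of groups, a signal per gene and library, namely read counts divided by DESeq2 size factors. The fold changes and p-values of the authors' own test stand in the same tables and were not used. Whole reads were recovered here from each signal column (at least 99.98% of values whole within 0.05 reads) and rescaled over the 9 libraries by median-of-ratios size factors.

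The test was limma 3.58.1 in R 4.3.3 (lmFit, eBayes with trend) on log2(normalized count + 1), two-sided, in genes with a mean of 10 or more reads, with Benjamini-Hochberg adjustment over all genes tested. Genes were called at an adjusted p under 0.05 and at least 2-fold. Contrasts with each stage came from 1 fit of 3 groups. edgeR 4.0.16 and DESeq2 1.42.0 on the recovered reads, other scalings, pseudocounts, filters, covariates, array weights and leaving out each library were alternatives. The test was checked on simulated data. Zero reads leave room for up to 3, and intervals cover counting error only.

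Named by rule were the 12 largest positive and 12 largest negative fold changes and the 4 smallest p in each direction among genes without overlap at an unadjusted p under 0.05 (predicted genes left out), called list members, and genes used in sorting or building the clones. Results of 2 genes are not reported here. Members of the comparison and the 21 gene lists were chosen with earlier results of these data known. Libraries of clone 34 come from separate mice and those of the pre-malignant group from 1 mouse, and p-values measure the spread between these libraries. Each of the other clones gave 1 library before and 1 after expansion, and the test took all libraries as independent.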

Additional observations from a re-analysis of the deposited data

Results flagged for a closer look

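Among the 6 libraries of the other clones, 11 of the 44 named genes examined held 1 library whose gap to the next, divided by the range of the 6, passed the 95% limit of Dixon's test for 6 values. For normally distributed values chance gives about 1 in 20 groups. The test was run on normalized counts without a log scale, and most of the genes were named from these same values. The 11 genes are therefore not set against that rate. In 9 of the 11 genes the library was de novo expanded library 3, always as the highest. The gap made up 0.924 of the range in *Sncaip*, 0.898 in *Prom1*, 0.825 in *Adam12*, 0.798 in *Ngp*, 0.725 in *Il1rn*, 0.715 in *Gsn*, 0.659 in *Mbd2*, 0.629 in *Ceacam1* and 0.6251 in *Mapk13*. In 8 of these 9 genes, all but *Adam12*, the outlying value lay on the side of clone 34. In *Gpx3* the outlying library was pre-malignant library 3 (5.25, 3.72 and 39.7 in the pre-malignant libraries), with a gap of 0.925 of the range, and in *Cxxc5* it was de novo expanded library 2, with 0.678. *Ceacam1* and *Il1rn* had been chosen after their values were seen.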

How the results depend on the processing

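No paired analysis was possible because no label links a column to a sample within its group, so neither clone nor mouse can be matched between groups. Genes called between clone 34 and the other clones numbered 1 in the test of the report and 0 in limma with a pseudocount of 0.1, a mean of 50 or more reads, quantile normalization, 3 group means or the olfactory share as covariate (709 to 1930 genes at an unadjusted p under 0.05), 0 in edgeR, 8 without a filter on low reads, 87 in DESeq2 and 142 with array weights. Without 1 library each they numbered 0 to 312. Of these, the genes without overlap numbered 0 under the same settings, 8, 58 and 61, and 0 to 297 without 1 library each. The 312 and 297 were without de novo expanded library 3. DESeq2 and the test without that library shared 71 genes, and array weights shared 125. With TMM scaling, a pseudocount of 5 or the leukemic libraries only, the 1 gene called was *Gpx3*, and without clone 34 replicate 3 the 2 genes were *Zfp11* and *S100a9*.
Clone 34 against de novo expanded libraries gave 2 calls in the report, 0 with a pseudocount of 0.1, a mean of 50 or more reads, quantile normalization or edgeR, 33 in DESeq2, and 0 to 615 without 1 library each. Against pre-malignant libraries it gave 6 calls, 26 without a filter, 2 with a mean of 50 or more reads, 282 in DESeq2, and 0 to 399. De novo expanded against pre-malignant libraries gave 5 calls, 3 with a mean of 50 or more reads and in edgeR, 68 in DESeq2, and 0 to 134. The highest count in each was again without de novo expanded library 3. The number of chromosomes past the limit was 0 under each alternative, which says nothing of stability, since 1 chromosome alone could not pass. Near 0, log2 fold changes reversed for *Kit* (0.089 with the leukemic libraries only), *Ptprc* (0.0023 with TMM scaling, 0.012 without clone 34 replicate 2, 0.020 without de novo expanded replicate 2, 0.0068 without pre-malignant replicate 1, with -0.048 to 0.020 without 1 library each) and *Thy1* (0.045 with the olfactory covariate, 0.027 with array weights, 0.081 without clone 34 replicate 3, with -0.14 to 0.081 without 1 library each). Of the 21 list medians, 12 kept their sign under every alternative run, among them secondary and primary granule, immediate early, interferon and B cell genes, although the B cell median moved under 15 settings. The other 9 changed sign under 1 to 9 settings each (adhesion 9, receptors 7, macrophage 6, imprinted and platelet 5). Why the counts moved was not tested. After seeing the data, genes without overlap were also counted without a stretch of chromosome 14, which left 618 of 640, and without de novo expanded library 3, which gave 2166. Genes under 10 reads were not tested.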

Other observations

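Some imprinted and developmental genes followed the order of libraries seen in the granule genes. *Cdkn1c*, an imprinted cell cycle inhibitor, was read at 718, 393 and 471 normalized counts in clone 34, 50.1, 44.5 and 476 in de novo expanded and 173, 94.9 and 39.7 in pre-malignant libraries. *Igf2r*, the imprinted receptor that clears insulin-like growth factor 2, was read at 7604, 5389 and 7869 in clone 34, 1589, 2673 and 12175 in de novo expanded and 3646, 4034 and 2185 in pre-malignant libraries. *Dach1*, a transcriptional cofactor, was read at 1710.2, 1137 and 1636 in clone 34, 88.9, 134 and 1452 in de novo expanded and 764, 395 and 303 in pre-malignant libraries, and *Lin28a*, a fetal RNA-binding protein that blocks let-7 processing, at 835, 527 and 517 in clone 34, 113, 221 and 662 in de novo expanded and 278, 294 and 190.2 in pre-malignant libraries. In all 4 genes clone 34 lay above every other library except de novo expanded library 3. With it 0 of the 4 were called, with limma adjusted p of 0.279, 0.455, 0.333 and 0.330. Without it all 4 were called higher, with log2 fold changes of 2.89, 1.36, 2.52 and 1.55, beside 1.13% of all genes. The imprinted list had a median log2 fold change of 0.05 over 6 tested genes, and these 4 genes were chosen after their values were seen. *Vcam1*, an adhesion molecule of macrophages and stroma, was read at 1956, 1421 and 1078 in clone 34, 16.0, 91.5 and 2303 in de novo expanded and 1389, 168 and 186 in pre-malignant libraries, so that pre-malignant library 1 also reached clone 34.

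In a stretch of chromosome 14 (chr14:30000001-65000000), the 243 tested genes had a median deviation of 0.13, 0.17 and 0.18 (log2) in the clone 34 libraries, -0.39 in de novo expanded library 3 and -0.47 in pre-malignant library 1, and 0.10 to 0.13 in the other 4 libraries. The stretch was chosen after the data were seen. It held 20 of the 326 genes in which clone 34 lay above all 6 other libraries and 2 of the 314 in which it lay below, and *Peli2* and *Slc7a8* lie in it. The low values were those of de novo expanded library 3 and pre-malignant library 1, and clone 34 lay with the other 4 libraries. Of 219 windows of 10000000 bases over the genome with at least 20 tested genes, clone 34 lay above all other libraries in 3 and below all in 6.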
